A study of Mus musculus with 8 samples.

Results

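The transcripts described here are those of the prostaglandin E2 pathway in mouse embryonic fibroblasts, with the receptor gene Ptger4 in the lead. The pathway was set as 9 genes, namely the receptors Ptger4, Ptger1, Ptger2 and Ptger3, the phospholipase Pla2g4a, the cyclooxygenases Ptgs1 and Ptgs2, and the synthases Ptgis and Ptges. A probe set was taken where the platform annotation gives it 1 of these symbols alone, which found 9 probe sets of 8 genes among 12422, with 2 for Ptger3 and none for Ptgs1. Ptger4 was chosen on its measured values: in Stat3 KO fibroblasts it ranked 5 among 5195 genes by the p of the response to oncostatin M, just ahead of Socs1. The other genes were added for their place in the pathway.

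The cells were 2 fibroblast lines that had become immortal spontaneously in culture. The STAT3-/- line (Stat3 KO) lacks both copies of the transcription factor Stat3 and the STAT3+/+ line (Stat3 WT) carries both. OSM stands for oncostatin M, an interleukin-6 type cytokine, which was added to each line at 20 ng/ml for 30 minutes, while other cells were left untreated, in medium with 10% serum. Each of the 4 groups held 2 arrays, numbered 2 and 3 in the sample titles, and the titles alone set the treatment because the growth text names OSM for untreated cells too. As 1 line stands for each genotype, an effect of Stat3 and any other difference between the lines cannot be told apart.

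Prostaglandin E2 is made in 3 steps. Cytosolic phospholipase A2, the product of Pla2g4a, releases arachidonic acid from membranes. The cyclooxygenases turn it into prostaglandin H2, Ptgs1 being the constitutive form and Ptgs2 the form that growth factors and cytokines induce within minutes to hours. Terminal synthases then make prostaglandin E2 (Ptges) or prostacyclin (Ptgis). Prostaglandin E2 acts through receptors named EP1 to EP4 (Ptger1 to Ptger4): EP2 and EP4 raise cyclic AMP, EP3 mostly lowers it, and EP1 acts through calcium.

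The promoter windows of Ptger4 and Ptgs2 are shown because these 2 genes had the largest mean OSM differences among the pathway probe sets in Stat3 KO cells. Both are RefSeq sequences of build GRCm38.p6, from 250 bases before to 50 bases after the transcript start, read on the gene's strand. The Ptger4 window is chr15:5244138-5244437 on the minus strand and the Ptgs2 window chr1:150099781-150100080 on the plus strand. Capitals mark matches to 7 motifs searched on both strands: TTCNNNGAA (STAT factors), TGACG (a half-site for CREB-type factors), TGACTCA (AP-1), TTGCNNAA (C/EBP), CACGTG (an E-box), CCAAT and TATAAA.
Ptger4: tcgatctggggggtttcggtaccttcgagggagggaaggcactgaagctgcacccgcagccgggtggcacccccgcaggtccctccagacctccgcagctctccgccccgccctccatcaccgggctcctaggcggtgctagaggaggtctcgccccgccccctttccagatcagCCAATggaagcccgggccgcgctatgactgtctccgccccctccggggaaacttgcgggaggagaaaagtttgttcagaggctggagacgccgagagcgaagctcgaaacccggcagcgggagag
Ptgs2: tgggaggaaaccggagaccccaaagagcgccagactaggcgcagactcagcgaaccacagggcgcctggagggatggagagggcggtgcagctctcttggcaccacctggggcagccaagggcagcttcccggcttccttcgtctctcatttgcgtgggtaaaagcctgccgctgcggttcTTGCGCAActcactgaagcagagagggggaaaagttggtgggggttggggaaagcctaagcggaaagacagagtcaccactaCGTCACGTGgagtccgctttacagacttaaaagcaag
The Ptger4 window held 1 match, CCAAT, beginning 75 bases before the start. The Ptgs2 window held TTGCGCAA, a match to TTGCNNAA on both strands, beginning 69 bases before the start. Past its start a single run of capitals holds CACGTG and, on the other strand, TGACG, which overlap. Neither window held TTCNNNGAA, which says only that these letters are not in these windows. Of the 32851 promoter windows of the same length in the RefSeq table, 37.4% held CCAAT, 10.8% TTGCNNAA, 7.15% CACGTG, 20.8% TGACG, 8.3% TTCNNNGAA, 5.2% TGACTCA and 13.6% TATAAA.

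Every value is on the log2 scale, made per probe set by the authors with GCRMA, a method that pulls dim probe sets to low values. The arrays had medians of 5.27 to 5.66, and values under 5 were read as near background. Stat3 itself lay at 7.81 to 9.17 in Stat3 KO and 10.11 to 11.94 in Stat3 WT arrays on 1 probe set, above the floor in both lines. On the other probe set 3 Stat3 KO arrays lay at 2.76 to 2.94, but Stat3 KO with OSM replicate 3, which is 1 of the 2 arrays with a Ptger4 signal, read 7.30, against 9.80 to 12.57 in Stat3 WT arrays. Where the deleted part lies relative to these probes is not stated in the labels. Of 15 fibroblast markers on the platform 13 were at or above 5 on every array (Col1a1 at 14.98 to 15.87), while the probe sets of Thy1 and Vim stayed under 5. Of 9 leukocyte markers 7 were under 5 on all arrays, Ptprc among them, but Cd14 and Csf1r were not (8.80 or more), and the summed level of that list on the log2 scale was 10.33 to 10.77 in Stat3 KO cells with OSM, 10.28 to 11.39 in untreated Stat3 KO cells, 11.13 to 11.87 in OSM-treated Stat3 WT cells and 10.73 to 10.96 in untreated Stat3 WT cells. Of the 7 epithelial markers 5 and of the 6 endothelial markers 3 were under 5 on all arrays. The summed endothelial level was 7.72 to 8.10 in Stat3 KO cells with OSM, 8.0 to 8.85 in untreated Stat3 KO cells, 8.52 to 9.09 in Stat3 WT cells with OSM and 8.48 to 8.72 in untreated Stat3 WT cells. In the list of platelet and smooth muscle markers Acta2 lay at 12.70 to 14.22 and Gp9 at 4.73 to 5.49. The other 3 of 5 genes (Pf4, Des and Myh11) were under 5 throughout, so that the summed level of the list is almost wholly that of Acta2. The summed level of that list was higher on every Stat3 KO array than on any Stat3 WT array, at 13.87 to 14.06 with OSM and 13.41 to 14.22 without in Stat3 KO cells, against 12.71 to 13.19 with OSM and 13.00 to 13.27 without in Stat3 WT cells. The part of these marker levels in the results was not tested.

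The arrays separate first by replicate number. The first principal component of the 6756 probe sets tested held 56% of the variance and placed the replicate 3 arrays at 32.46 to 51.46. Among the replicate 2 arrays 3 lay at -54.69 to -48.05, while Stat3 KO with OSM replicate 2 lay at -19.43, part of the way to replicate 3. No label says what this number stands for. Most differences are therefore given within each number as well as over both.

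**Figure D1:**
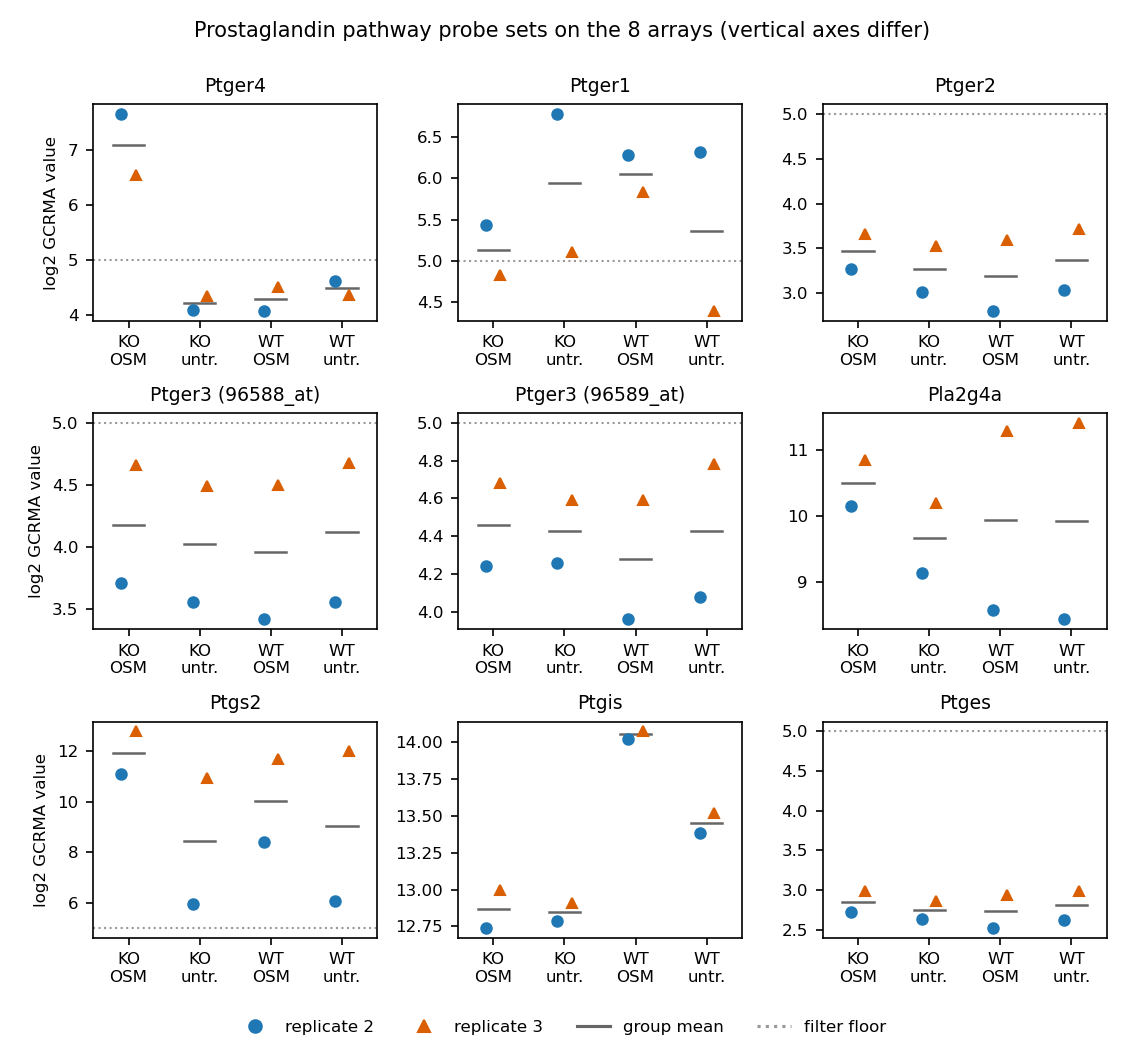
Log2 GCRMA value (vertical axis, scaled per panel) of each prostaglandin pathway probe set on the 8 arrays, by group (horizontal axis; untr., untreated). Circles are replicate 2, triangles replicate 3, grey bars group means, and the dotted line the floor of 5, drawn where values come near it. Ptger4 is above the floor on the 2 arrays of Stat3 KO cells with OSM and under it on the other 6, Pla2g4a separates by replicate number, Ptgs2 is higher in replicate 3 than in replicate 2 of each group, and Ptgis separates by genotype.

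Ptger4 encodes EP4, the receptor that couples prostaglandin E2 to cyclic AMP. It read 7.65 and 6.55 in replicates 2 and 3 of Stat3 KO cells with OSM, against 4.09 and 4.35 in untreated Stat3 KO cells. Stat3 WT cells gave 4.08 and 4.51 with OSM, against 4.63 and 4.36 without. The signal was thus above background on the 2 arrays of Stat3 KO cells with OSM and stayed at 4.08 to 4.63 on the other 6. These 2 arrays are also the ones through which the probe set passed the filter on low values, so that once kept it had to differ between groups.

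The OSM difference of Ptger4 in Stat3 KO cells was 2.88 ± 0.48 (limma SE), with 3.56 within replicate 2 and 2.20 within replicate 3. This is the contrast that chose the gene, and it and every other value from Stat3 KO arrays are given as a description without a test. The within-number difference was smaller in replicate 3, but untreated cells lay between 4.09 and 4.63 in both numbers and both genotypes. In Stat3 WT cells all 4 values lay under 5, and nothing is read from their difference of -0.21 (-0.56 and 0.14 within replicates 2 and 3), which is 0.00 with values under 5 set to 5. Stat3 KO cells exceeded Stat3 WT cells by 2.80 with OSM (3.57 and 2.04 within replicates 2 and 3) and differed from them by -0.28 without (-0.55 and -0.01). In order of level, Stat3 KO cells with OSM came first at 7.10 ± 0.78, then untreated Stat3 WT cells at 4.50 ± 0.19, Stat3 WT cells with OSM at 4.29 ± 0.30 and untreated Stat3 KO cells at 4.22 ± 0.19 (SD, n = 2 each). The last 3 lie under 5 and have no order.

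The OSM response of Ptger4 in Stat3 KO cells exceeded that in Stat3 WT cells by 3.08, or 4.11 within replicate 2 and 2.05 within replicate 3. With 1 array left out the value in Stat3 KO cells lay between 2.33 and 3.43. When values under 5 were set to 5 it was 2.10. These RNA levels are averages over a culture, in which fewer expressing cells and less RNA per cell cannot be told apart.

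Ptger1, which encodes the calcium-linked EP1, was close to the floor. It read 5.43 and 4.82 in Stat3 KO cells with OSM, against 6.78 and 5.11 in untreated Stat3 KO cells. The Stat3 WT values were 6.28 and 5.84 with OSM, against 6.32 and 4.39 without. With OSM both Stat3 KO arrays lay below both Stat3 WT arrays, with a difference of -0.93 ± 0.82 (SE; limma adjusted p = 1), or -0.85 and -1.01 within the numbers. Its OSM difference was -0.82 in Stat3 KO cells (-1.35 and -0.28 within replicates 2 and 3) and 0.70 in Stat3 WT cells (-0.05 and 1.44), and the difference of these responses was -1.52 ± 1.16 (SE; limma adjusted p = 1). Within the numbers that last value was -1.31 and -1.73.

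Ptger2 (EP2) and Ptger3 (EP3) were under 5 on every array and were not tested. Ptger2 lay between 2.80 and 3.72, and the 2 probe sets of Ptger3 between 3.42 and 4.68 and between 3.96 and 4.78. In all of these, replicate 3 was above replicate 2 in each group (for Ptger2 between 3.52 and 3.72 in the replicate 3 arrays and between 2.80 and 3.27 in those of replicate 2). Of the receptors with a probe set, Ptger4 and Ptger1 were therefore the ones with any array at or above the floor.

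Pla2g4a, the phospholipase that supplies arachidonic acid, read 10.15 and 10.85 in Stat3 KO cells with OSM, against 9.13 and 10.20 in untreated Stat3 KO cells. The Stat3 WT arrays read 8.57 and 11.29 with OSM, against 8.43 and 11.41 without. The replicate number set most of this spread, with means over the 4 groups of 10.94 in replicate 3 and 9.07 in replicate 2. The OSM difference in Stat3 KO cells was 0.83 ± 1.24 (SE; limma adjusted p = 1), positive within both numbers at 1.02 and 0.65. With the replicate number as a block, its SE was 0.62 and its limma adjusted p 0.636. In Stat3 WT cells the OSM difference was 0.02 ± 1.24 (SE; limma adjusted p = 1), with 0.15 and -0.12 within the numbers. The difference of the responses was 0.82 ± 1.75 (SE; limma adjusted p = 1), or 0.87 and 0.76 within the numbers. The genotype difference changed sign between the numbers, at 0.70 and -1.20 without OSM and at 1.58 and -0.44 with it.

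Ptgs2, the inducible cyclooxygenase, had the widest range of the members. It read 11.08 and 12.77 in Stat3 KO cells with OSM, against 5.94 and 10.92 in untreated Stat3 KO cells. The values in Stat3 WT cells were 8.38 and 11.69 with OSM, against 6.08 and 12.01 without. Untreated cells of both lines were thus near the floor in replicate 2 and bright in replicate 3. The OSM difference in Stat3 KO cells was 3.49 ± 2.47 (SE; limma adjusted p = 1), with no overlap between the groups and with 5.14 within replicate 2 and 1.85 within replicate 3. With the replicate number as a block, its SE was 0.98 and its limma adjusted p 0.384. This difference was 1.0 without untreated Stat3 KO replicate 2 and 5.98 without untreated Stat3 KO replicate 3. In Stat3 WT cells the OSM difference was 0.99 ± 2.47 (SE; limma adjusted p = 1), with 2.30 within replicate 2 and -0.32 within replicate 3.

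The Ptgs2 response was larger in Stat3 KO than in Stat3 WT cells within each number, by 2.84 and 2.16, and by 2.50 ± 3.49 over both (SE; limma adjusted p = 1). Beside this, Stat3 KO with OSM replicate 2 is the array that lies part of the way to replicate 3, where Ptgs2 and Pla2g4a are high, and the part of this in their values was not tested. Within replicate 3 alone, the OSM differences in Stat3 KO cells were 1.85 for Ptgs2, 0.65 for Pla2g4a and 2.20 for Ptger4.

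**Figure D2:**
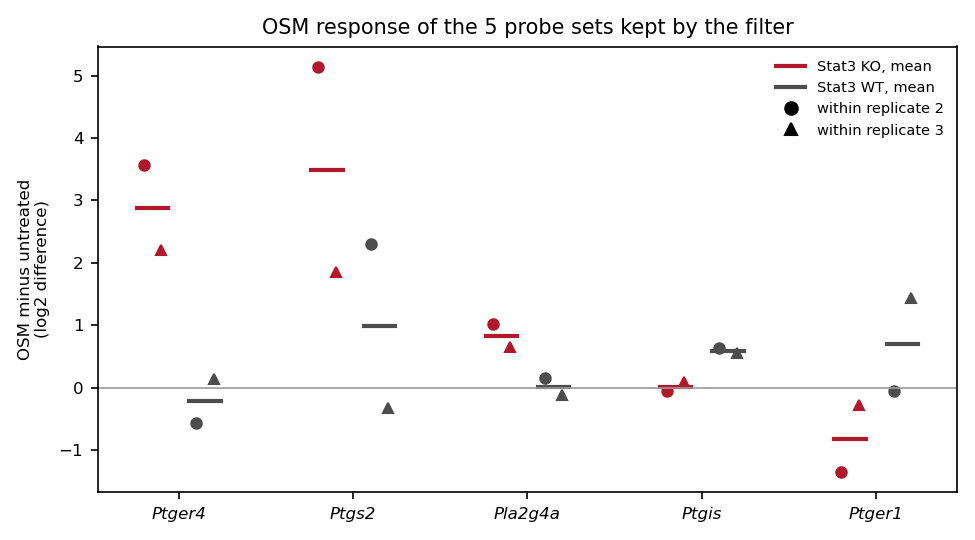
OSM minus untreated log2 difference (vertical axis) of the 5 pathway probe sets kept by the filter, in Stat3 KO cells (red, left of each pair) and Stat3 WT cells (grey). Bars are means, circles the difference within replicate 2 and triangles that within replicate 3. Ptger4, Ptgs2 and Pla2g4a are above 0 within both numbers in Stat3 KO cells, and Ptgis is above 0 within both in Stat3 WT cells.

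Ptgis encodes prostacyclin synthase, and its arrays of a group lay close together, with an SD of 0.04 to 0.19 (n = 2). It read 12.74 and 13.00 in Stat3 KO cells with OSM and 12.79 and 12.91 in untreated Stat3 KO cells. Stat3 WT cells read 14.02 and 14.07 with OSM, against 13.38 and 13.52 without. All 4 Stat3 KO arrays lay below all 4 Stat3 WT arrays. The summed level of the platelet and smooth muscle list, almost wholly that of Acta2, was instead higher in Stat3 KO arrays, at 13.41 to 14.22 against 12.71 to 13.27. The part of that level in the genotype differences of Ptgis, Cbr1 and Adcy7 was not tested. The genotype difference was -0.60 ± 0.21 without OSM (SE; limma unadjusted p = 0.029, adjusted p = 1) and -1.17 ± 0.21 with OSM (SE; limma unadjusted p = 0.00139, adjusted p = 0.523). Within replicates 2 and 3 it was -0.59 and -0.62 without OSM and -1.28 and -1.07 with it. With the replicate number as a block, its SE was 0.15 and its limma adjusted p 0.426 without OSM and 0.0906 with it.

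With OSM, Ptgis was higher in Stat3 WT cells by 0.59 ± 0.21 (SE; limma unadjusted p = 0.0312, adjusted p = 1), without overlap and with 0.64 and 0.55 within the numbers. In Stat3 KO cells the difference was 0.02 ± 0.21 (SE; limma adjusted p = 1), with -0.05 and 0.10 within the numbers and a sign that turned to -0.04 after quantile normalization and -0.03 after median centring. The difference of the responses was -0.57 ± 0.30 (SE; limma unadjusted p = 0.106, adjusted p = 1), or -0.69 and -0.45 within the numbers. No Ptgis value passed the test over all probe sets. Ptges, the inducible prostaglandin E synthase, lay between 2.52 and 2.99 on all arrays and was not tested.

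Counted over the pathway, 5 of the 9 probe sets were kept by the filter. No tested value of these passed limma in any comparison, with or without the replicate number as a block. Ptger4 counts there only for OSM in Stat3 WT cells. Over all 6756 probe sets 0% passed in either direction in 4 of the 5 comparisons, and 0.0148% passed as higher in Stat3 KO than in Stat3 WT cells with OSM. With the block 0% passed for genotype without OSM and for the difference of the responses, 0.0148% for OSM in Stat3 WT cells, 0.0296% for OSM in Stat3 KO cells and 0.104% for genotype with OSM. In the fit without the block, an unadjusted p under 0.05 was reached by Ptgis in 3 comparisons and by no other tested value of a member. Over all probe sets that share was 2.24% for genotype without OSM, 1.87% for OSM in Stat3 WT cells, 2.04% for OSM in Stat3 KO cells, 3.6% for genotype with OSM and 0.429% for the difference of the responses.

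Without overlap between the groups, 2 of the 5 kept probe sets were higher with OSM in Stat3 KO cells (Ptger4 and Ptgs2), against 14.4% of all probe sets, and as this contrast chose Ptger4 nothing is read from the count. With OSM in Stat3 WT cells 1 was higher (Ptgis), against 8.29%. Stat3 KO cells were lower than Stat3 WT cells without OSM for 2 (Ptgis and Ptger4), against 12.4%, and the Ptger4 values there are near background. With OSM Stat3 KO cells were lower for 2 (Ptgis and Ptger1), against 13.8%, and higher for 1 (Ptger4), against 11.2%. For the difference of the responses within the numbers, 2 were higher in Stat3 KO cells (Ptger4 and Pla2g4a), against 25.5%, and 2 lower (Ptgis and Ptger1), against 20.1%. Ptger4 passed the filter through the 2 arrays of Stat3 KO cells with OSM alone. Nothing is therefore read from the counts with Ptger4 for genotype with OSM and for the difference of the responses.

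A wider list of 51 eicosanoid genes held the other prostanoid receptors and synthases, phospholipases, lipoxygenases and leukotriene genes. The platform carried 32 of them in 44 probe sets, and the filter kept 15 probe sets of 12 genes. None passed limma in any comparison, with or without the block. The receptors for prostacyclin (Ptgir), prostaglandin D2 (Ptgdr) and prostaglandin F (Ptgfr) were under 5 on all arrays, as was Hpgd, the enzyme that inactivates prostaglandin E2. Ptges2, the gene of another prostaglandin E synthase, was bright on all arrays. It lay at 8.87 to 9.20 in Stat3 KO and 9.39 to 9.77 in Stat3 WT arrays, and is named after its values were seen. The kept probe sets had a median OSM difference of -0.11 in Stat3 KO cells, against 0.02 over all probe sets, and -0.06 in Stat3 WT cells, against -0.04. Their median genotype difference was -0.09 with OSM and -0.07 without, against -0.00 and -0.06 over all probe sets. With OSM 2 of the 15 were lower in Stat3 KO than in Stat3 WT cells without overlap, against 13.8%, and 0 higher, against 11.2%. Without OSM 2 were lower, against 12.4%, and 1 was higher, for which no share over all probe sets is given. Nothing is read from these counts.

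Cbr1, a carbonyl reductase that can turn prostaglandin E2 into prostaglandin F2 alpha, was the 1 gene of this list named for non-overlapping groups at least 1 log2 apart. It read 9.26 and 8.72 in Stat3 KO cells with OSM and 10.27 and 9.48 in untreated Stat3 KO cells. Stat3 WT cells had 10.70 and 10.85 with OSM and 10.93 and 11.17 without. The 4 Stat3 KO arrays lay below the 4 Stat3 WT arrays, as for Ptgis and Ptges2. The genotype difference was -1.79 ± 0.38 with OSM (SE; limma unadjusted p = 0.00331, adjusted p = 0.659) and -1.17 ± 0.38 without (SE; limma unadjusted p = 0.0217, adjusted p = 1). Within replicates 2 and 3 it was -1.44 and -2.13 with OSM and -0.66 and -1.69 without. These genotype contrasts named Cbr1, so their p-values are a description. The OSM difference of Cbr1 in Stat3 KO cells was -0.89 ± 0.38 (SE; limma adjusted p = 1), or -1.01 and -0.76 within the numbers.

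A second list held 37 genes of cyclic AMP signalling, which EP2 and EP4 feed, and genes that cyclic AMP commonly raises. Of these 25 were on the platform in 34 probe sets, and 14 probe sets of 14 genes were kept. None passed limma in any comparison, with or without the block. The median OSM difference was 0.05 for Stat3 KO cells and -0.10 for Stat3 WT cells, against 0.02 and -0.04 over all probe sets, and 1 probe set was higher without overlap in each (Has2), against 14.4% and 8.29% of all probe sets. Without overlap 2 were lower with OSM in Stat3 KO cells (Prkaca and Prkacb, which encode catalytic subunits of protein kinase A), against 12.3%, and 2 in Stat3 WT cells (Crebbp and Nr4a1), against 9.31%. The Nr4a1 values in Stat3 WT cells lay near the floor, at 4.36 to 5.15. Prkaca, Prkacb, Prkar1a, Prkar1b, Prkar2a, Pde4b, Pde7a and Pde8a were named after their values were seen. Of the receptor's downstream parts, the catalytic subunit gene Prkaca and the regulatory subunit gene Prkar1a were bright on all arrays (11.85 to 12.45 and 13.45 to 14.03). Of the other regulatory subunit genes, Prkar2a lay at 5.37 to 7.63, and both probe sets of Prkar1b were under 5 on all arrays. Of the cyclic AMP phosphodiesterase genes, Pde4b was at most at 1.93 and Pde8a at most at 2.94, while Pde7a lay at 7.46 to 8.47.

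Has2, which makes hyaluronan, had the largest OSM differences of that list. It read 8.05 and 10.38 in Stat3 KO cells with OSM, against 3.93 and 5.16 in untreated Stat3 KO cells. On the Stat3 WT arrays it read 10.11 and 11.40 with OSM, against 4.94 and 7.20 without. The OSM difference was 4.67 ± 1.10 in Stat3 KO cells (SE; limma unadjusted p = 0.00511, adjusted p = 1) and 4.68 ± 1.10 in Stat3 WT cells (SE; limma unadjusted p = 0.00504, adjusted p = 1). Stat3 KO cells gave 4.11 within replicate 2 and 5.22 within replicate 3, and Stat3 WT cells 5.17 and 4.20. Fitting the replicate number as a block lowered the SE of both OSM differences to 0.38. The limma adjusted p was then 0.0508 for the Stat3 KO line and 0.0888 for the Stat3 WT line, both above 0.05. The OSM contrasts named Has2, so the p-values of these contrasts are a description. The difference of the responses was -0.01 ± 1.55 (SE), with -1.05 and 1.03 within the numbers.

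Adcy7, an adenylate cyclase, separated the lines. It read 9.21 and 6.91 in Stat3 KO cells with OSM, against 4.16 and 3.35 in Stat3 WT cells with OSM. Untreated Stat3 KO cells read 8.54 and 7.24, against 3.31 and 4.04 in untreated Stat3 WT cells. The Stat3 WT values are all near background, and the probe set was kept by the filter through the 4 Stat3 KO arrays alone, so that once kept it had to differ between the lines and no test is given. The genotype difference was 4.30 with OSM (5.04 and 3.56 within replicates 2 and 3) and 4.21 without (5.23 and 3.20). With values under 5 set to 5, an alternative for Adcy7 chosen after seeing the data, it was 3.06 with OSM and 2.89 without. Another adenylate cyclase gene, Adcy6, lay at 10.03 to 11.54 over the arrays of both lines. Adcy3, Adcy4, Adcy8 and Adcy9 were under 5 on all arrays. These other cyclase genes are named after their values were seen.

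Nr4a1, an immediate early nuclear receptor that cyclic AMP and growth factors raise, followed genotype and number together. It read 5.69 and 10.09 in Stat3 KO cells with OSM and 8.96 in replicate 3 but 4.50 in replicate 2 of untreated Stat3 KO cells. All Stat3 WT arrays lay at 4.36 to 5.15. Its genotype difference with OSM was 3.27 ± 1.82 (SE; limma adjusted p = 1), or 1.33 and 5.21 within the numbers. Crebbp, a coactivator of CREB, had a genotype difference of -0.80 ± 0.57 with OSM and -1.40 ± 0.57 without (SE; limma adjusted p = 1 for both). Within replicates 2 and 3 it was -0.77 and -0.84 with OSM and -2.08 and -0.71 without. The genotype contrast with OSM named Nr4a1 and that without OSM named Crebbp, so the p-values of these contrasts are a description.

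**Figure D3:**
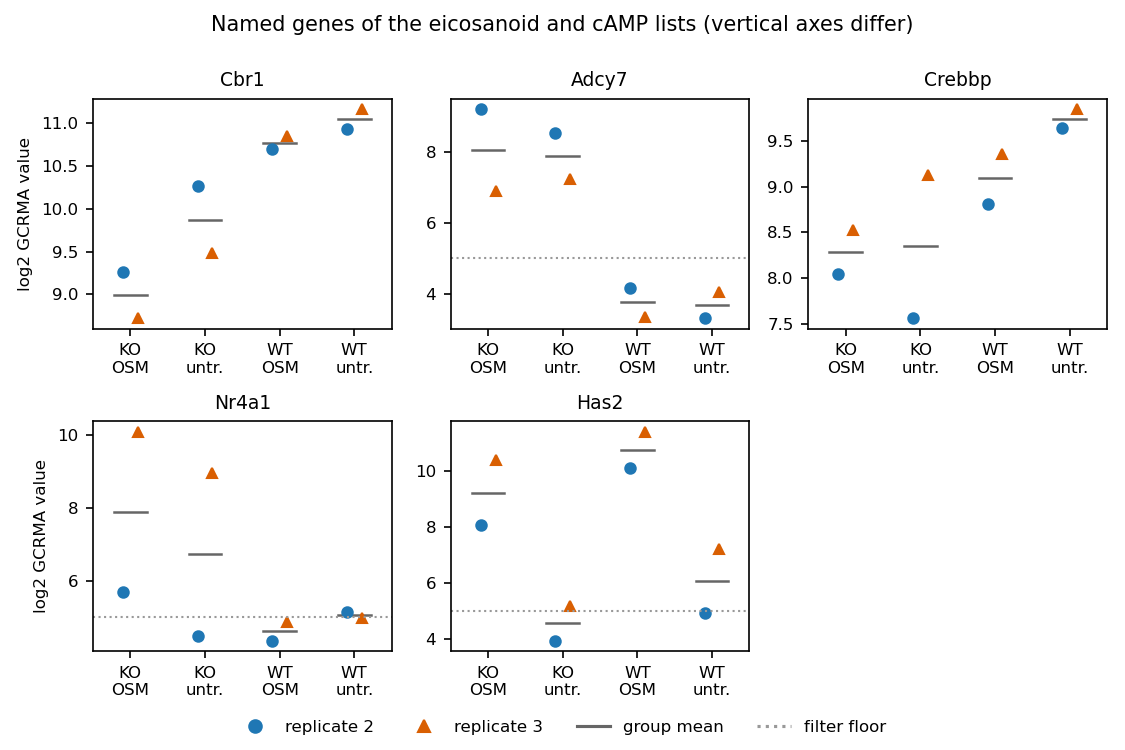
Log2 GCRMA value (vertical axis, scaled per panel) on the 8 arrays of the 5 genes named from the eicosanoid and cyclic AMP lists, with groups, symbols and floor as in the plot of the pathway probe sets. Cbr1 is lower and Adcy7 higher on every Stat3 KO array than on any Stat3 WT array, and Has2 is higher with OSM in both lines.

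The genes with the pattern most like that of Ptger4 were found over the 8 arrays, after the mean of each replicate number was subtracted, by the root mean square of the log2 difference from Ptger4. Of 5190 genes ranked, the closest were Inhba (0.396), Irgm1 (0.513), Ggct (0.516), Irf1 (0.519) and Rasa1 (0.585). This is a description, as the pattern of Ptger4 was itself chosen. Inhba encodes a subunit of activins, Irgm1 an interferon-inducible GTPase and Irf1 an interferon regulatory factor, while Rasa1 encodes a GTPase-activating protein for Ras and Ggct a gamma-glutamyl cyclotransferase.

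Inhba read 11.30 and 10.16 in Stat3 KO cells with OSM, against 8.29 and 8.08 in untreated Stat3 KO cells. The Stat3 WT arrays gave 8.38 and 8.94 with OSM, against 8.91 and 7.41 without. Irf1 read 13.48 and 14.82 in Stat3 KO cells with OSM, against 11.41 and 12.78 in untreated Stat3 KO cells. Unlike Ptger4, these 5 genes lay well above the floor on all arrays, the lowest value being 7.41 for Inhba. Their OSM differences in Stat3 KO cells were 2.54 for Inhba, 2.89 for Irgm1, 2.00 for Ggct, 2.06 for Irf1 and 1.55 for Rasa1. In Stat3 WT cells they were 0.50, 0.79, 0.30, 0.07 and 0.33 in the same order. The OSM difference of Rasa1 in Stat3 KO cells was 2.68 within replicate 2 but 0.42 within replicate 3.

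**Figure D4:**
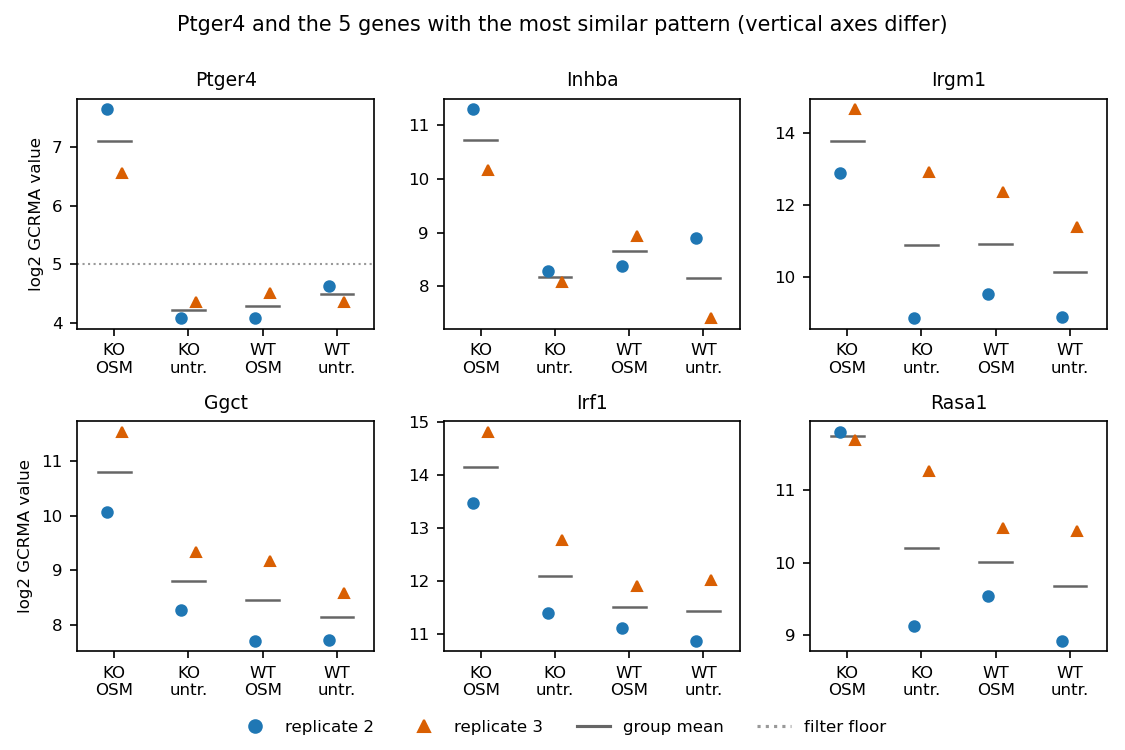
Log2 GCRMA value (vertical axis, scaled per panel) of Ptger4 and of the 5 genes closest to it in pattern on the 8 arrays, with groups, symbols and floor as in the plot of the pathway probe sets. In each panel the mean of Stat3 KO cells with OSM is the highest of the 4 group means, and replicate 3 lies above replicate 2 on most arrays of Irgm1, Ggct, Irf1 and Rasa1 but not in the Ptger4 arrays with the highest values.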

How the data were processed

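Biotin-labelled cRNA of total RNA was measured on Affymetrix arrays, per the labels' protocols. The authors deposited 1 log2 value for each probe set and array. The submitters' processing notes name GCRMA and affy. The sources used here do not give whether all arrays were normalized together. From 12488 probe sets 66 controls were left out. Of the rest, 10833 have 1 gene symbol in the platform annotation, 396 several and 1193 none, and 10817 gene IDs of the first matched the RefSeq gene table of GRCm38.p6, which was used for names.

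The sample titles gave the groups and replicate numbers. No source says whether 2 arrays of a group stand for separate cultures, so that p-values cover only the spread between these arrays (possibly technical), and 8 arrays limit the precision. The test was limma 3.58.1 under R 4.3.3 (lmFit, eBayes with intensity trend, two-sided) on 4 group means with 4 residual degrees of freedom. Probe sets at log2 5 or more on at least 2 arrays were kept, Benjamini-Hochberg adjustment ran over these 6756, and an adjusted p under 0.05 was called. The members and lists were chosen with earlier results of these data known. Named were all members, and listed genes that passed, or whose groups did not overlap with means at least 1 log2 apart and 1 of them at 5 or more.

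Differences between replicate 3 and replicate 2 correlated between all pairs of groups, at 0.589 to 0.9106. From the data alone, the number was therefore also fitted as a block that pairs the arrays. The main fit has no term for the number, so that its SEs also hold the spread between the numbers. The block leaves 3 residual degrees of freedom. Unless the block is named, each SE and p-value given is from the fit without it. Alternatives were other filters, no trend, 2 renewed normalizations, values under 5 set to 5, the block, only the groups compared, and leaving out each array.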

Additional observations from a re-analysis of the deposited data

Results flagged for a closer look

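For 4 probe sets the values were higher with OSM within both replicate numbers in Stat3 KO cells and lower within both in Stat3 WT cells. The difference between the genotypes was not tested for 3 of them, which were under 5 on all arrays. For these the OSM response in Stat3 KO cells exceeded that in Stat3 WT cells by 0.38 for Ptger2, 0.32 for 1 probe set of Ptger3 and 0.18 for Ptges. For Nr4a1 the excess was 1.61, from 1.19 and 1.13 within replicates 2 and 3 of the Stat3 KO line and -0.79 and -0.11 in the Stat3 WT line (limma adjusted p = 1). Its Stat3 WT values lay near the floor, at 4.36 to 5.15. With values under 5 set to 5, an alternative for Nr4a1 chosen after seeing the data, the Stat3 WT difference was -0.08 and the excess 0.99. This pattern was looked for only among the members and the genes named from the eicosanoid and cyclic AMP lists. Its share over all probe sets was not counted, so nothing is read from the count. Both probe sets of Ptgfr, picked after its values were seen and under 5 on all arrays, showed it too. So did other listed probe sets under 5 on all arrays, such as those of Alox12, Alox15, Faah and Pde4b, picked in the same way. With values under 5 set to 5, the excesses of Ptger2, Ptger3 and Ptges were 0.00. With 2 arrays a group, no single array could be checked as an outlier.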

How the results depend on the processing

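Of the 158 values of tested members under settings other than leaving out 1 array, 154 kept their direction and side of the threshold, 0 passed, 3 turned and 1 was at 0. Those that turned were the OSM difference of Ptgis in Stat3 KO cells, -0.04 after quantile normalization and -0.03 after median centring, and that of Pla2g4a in Stat3 WT cells, -0.00 after quantile normalization. The OSM difference of Ptger4 in Stat3 WT cells was 0.00 with values under 5 set to 5. The stricter filter at log2 7 left Ptger4 and Ptger1 untested. With values under 5 set to 5, the Ptger4 difference was 2.10 in each comparison that uses Stat3 KO cells with OSM. With the replicate block limma called 1 probe set for OSM in Stat3 WT cells, 2 for OSM in Stat3 KO cells and 7 for genotype with OSM (against 0, 0 and 1 without it), and it changed no call of a member. With values under 5 set to 5, 1 probe set was called for OSM in Stat3 KO cells. The 1 call for genotype with OSM became 0 without the trend, after either normalization, with values under 5 set to 5 and with only the groups compared, and 0 to 1 with 1 array left out.

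Leaving out 1 array breaks the balance of replicate numbers. It gave ranges for genotype without OSM of -0.38 to 1.55 for Ptger1, -3.58 to 2.35 for Ptgs2 and -1.74 to 1.24 for Pla2g4a. For OSM in Stat3 WT cells they were -0.42 to 0.01 for Ptger4, -0.27 to 1.66 for Ptger1, -1.97 to 3.95 for Ptgs2 and -1.47 to 1.50 for Pla2g4a. For OSM in Stat3 KO cells they were -1.65 to 0.02 for Ptger1, -0.11 to 0.15 for Ptgis, 1.0 to 5.98 for Ptgs2 and 0.30 to 1.37 for Pla2g4a, for genotype with OSM -0.79 to 1.93 for Pla2g4a, and for the difference of the responses -0.46 to 5.47 for Ptgs2 and -0.67 to 2.31 for Pla2g4a. The genotype differences of Ptgis kept their direction, at -0.68 to -0.53 without OSM and -1.31 to -1.04 with it. The cause of these turns was not tested.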
